A study of Mus musculus with 21 samples.

Results

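Macrophages take up arginine and split it between competing enzymes, and 10 genes of that system were followed here out of 47069 genes in the count table: Arg1, Arg2, Nos2, Slc7a1, Slc7a2, Ass1, Asl, Odc1, Srm and Sat1. They were found by gene name, and all 10 passed the filter on low counts. RNA came from mouse bone marrow-derived macrophages of the C57BL/6 background, grown for 5 days with M-CSF and kept for 36 h with IL-33, with IL-4 or with no added cytokine. The 21 libraries formed 7 groups of 3. Wild-type C57BL/6 cells had all 3 conditions. Cells labelled C57BL/6:ST2-/-, named for deletion of the IL-33 receptor ST2, and cells labelled C57BL/6:Cx3cr1CRExGata3fl/fl, in which Cre under the Cx3cr1 gene is meant to remove the transcription factor Gata3 from myeloid cells, had no cytokine or IL-33. These last cells are called Gata3-floxed below. No library is labelled as a Cre-only or floxed-only control, and the labels give neither the sex nor the age of the animals and do not say whether libraries of a group came from separate animals.

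Arginine enters the macrophage through cationic amino acid carriers such as Slc7a1 and Slc7a2. Arginase, made as cytosolic Arg1 or mitochondrial Arg2, cuts it into ornithine and urea, whereas the inducible synthase Nos2 turns it into nitric oxide and citrulline, and Ass1 and Asl rebuild arginine from citrulline. Ornithine then feeds the polyamines: Odc1 makes putrescine, Srm makes spermidine from it, and Sat1 acetylates spermidine and spermine for export or breakdown. High Arg1 is a textbook feature of IL-4-stimulated mouse macrophages, and high Nos2 of those stimulated with interferon and bacterial products.

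Libraries held from 32626469 to 48743646 counts. Macrophage markers were high in sum throughout, with 8 markers together at 14070.4 to 40574 CPM (the gene's count scaled to library size, with edgeR's TMM factors), most of it Lyz2. In wild-type cells this sum was 27775 to 30681 CPM without cytokine and 14070.4 to 15632 CPM with IL-4. The summed level of 10 neutrophil genes went from 32.0 to 38.4 CPM without cytokine to 196 to 278 CPM with IL-33 in wild-type cells, most of it Mmp8. In Gata3-floxed cells it went from 60.1 to 67.1 CPM up to 294 to 344 CPM. Of these 10 genes 9 had counts in the untreated and all 10 in the IL-33 wild-type group, but the defining marker Ly6g had 0 and 2 counts there in all. The 5 monocyte markers together went from 263 to 308 CPM up to 697 to 1041 CPM with IL-33 in wild-type and from 344 to 358 up to 658 to 726 CPM in Gata3-floxed cells. In wild-type cells mean F13a1 went from 47.4 to 508 CPM, Vcan from 4.11 to 74.6 CPM and Ccr2 from 226 to 298 CPM. In Gata3-floxed cells these means went from 55.9 to 272, from 4.22 to 104 and from 283 to 292 CPM. With IL-4 the wild-type monocyte sum was 126 to 134 CPM. Mast cell and basophil, dendritic and stromal lists summed to at most 14.5 CPM in any library, eosinophil markers to at most 41.3 CPM, and lymphoid markers, mainly Il7r and Rora, to 144 to 346 CPM. The part of these marker changes in the results was not tested. In bulk RNA, a changed cell mixture and a changed level per cell cannot be told apart. Counts over whole genes did not check the deletions: Il1rl1, which encodes ST2, was at 15.7 ± 1.45 CPM (SD, n = 3) in wild-type and 17.4 ± 2.95 CPM in ST2-/- cells without cytokine, and Gata3 had 17 counts in 3 wild-type and 32 in 3 Gata3-floxed libraries. All 6 Gata3-floxed libraries carried the female-specific RNA Xist, at 277 to 376 CPM, and almost no counts of 4 Y-linked genes, and the other 15 libraries showed the opposite, so sex and the Gata3-floxed genotype cannot be told apart.

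With IL-33, wild-type macrophages raised both arginases, the inducible carrier Slc7a2 and the arginine-rebuilding enzyme Ass1, and lowered the polyamine-acetylating enzyme Sat1. A member was called when its Benjamini-Hochberg adjusted p from edgeR's quasi-likelihood test was under 0.05. Of the 10 members 7 rose and 1 fell, where 18.5% of all 14473 tested genes rose and 16.9% fell. With upper-quartile scaling the balance over all genes turned, from 2676 higher and 2446 lower to 2251 and 3010, and likewise with IL-4, from 3627 and 3263 to 3209 and 3718. The median log2 change was 1.66 over the members and -0.0009 over all genes. With IL-4, 7 of 10 rose and 0 fell, against 25.1% and 22.5% of all genes, with a median log2 change of 0.66 for the members. Both comparisons share the 3 untreated wild-type libraries.

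**Figure D1:**
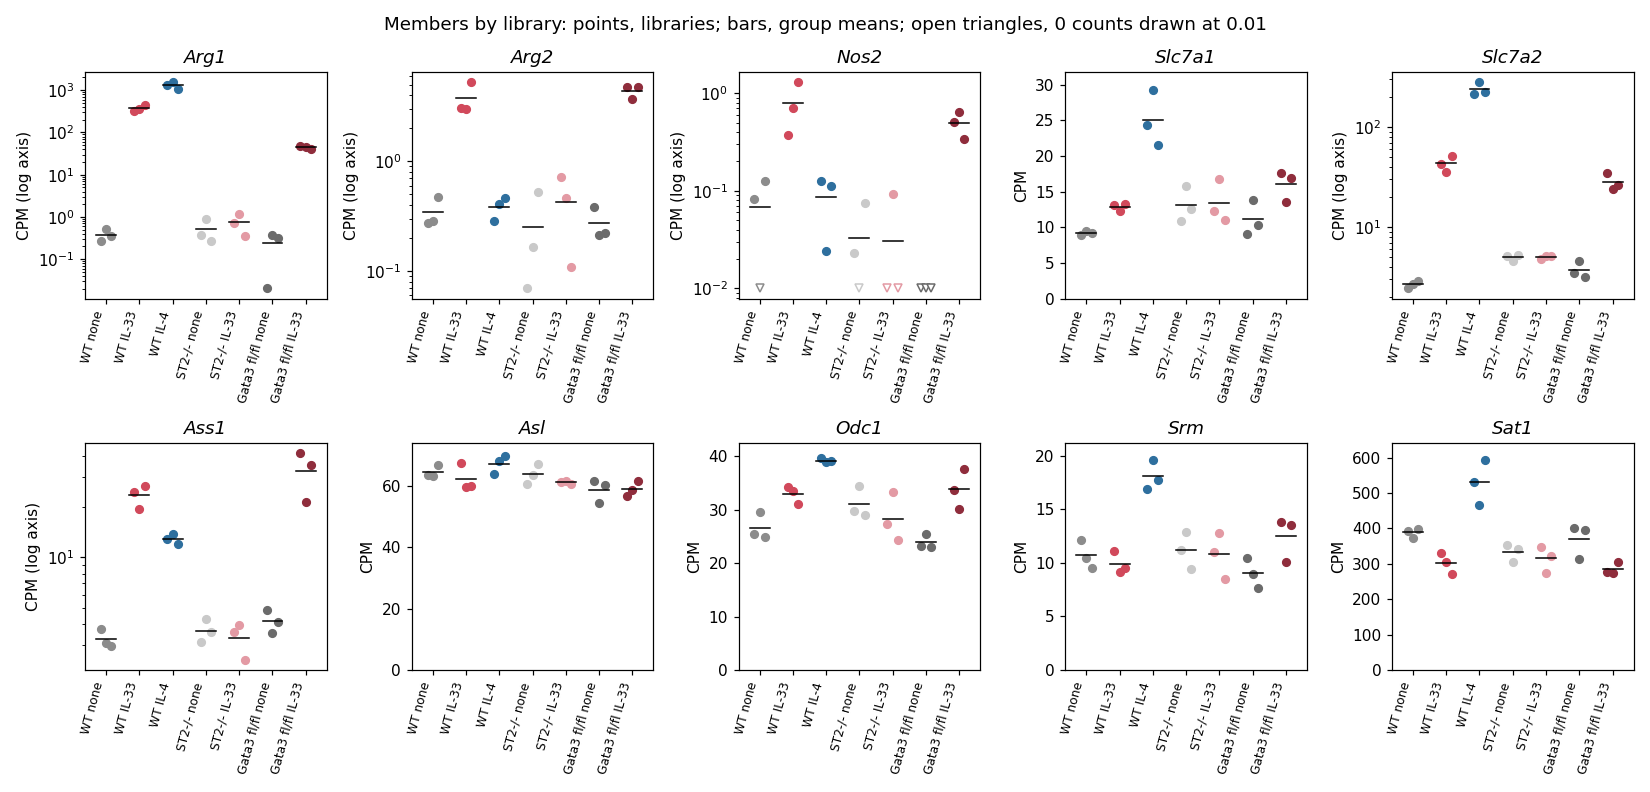
Level of each member in CPM in the 21 libraries, with a bar at each group mean and open triangles for libraries with 0 counts; Arg1, Arg2, Nos2, Slc7a2 and Ass1 are on log axes, the other panels start at 0, and "Gata3 fl/fl" stands for the Cx3cr1CRExGata3fl/fl label. In wild-type cells Arg1, Slc7a2 and Ass1 stand far above the untreated libraries with either cytokine and Arg2 and Nos2 with IL-33; these 5 genes do so with IL-33 in Gata3-floxed cells too, the ST2-/- groups overlap, and Asl lies between 54.2 and 69.6 CPM everywhere.

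Arg1 (ENSMUSG00000019987; GRCm38 chr10:24915221-24927484, minus strand), the cytosolic arginase, was nearly silent without cytokine. The 3 untreated wild-type libraries had 0.273, 0.519 and 0.351 CPM, which is 10, 20 and 14 counts. With IL-33 they had 319.9, 362 and 439 CPM, and with IL-4 1357, 1548 and 1092 CPM. The 3 sets did not overlap. IL-33 raised Arg1 969-fold (log2 change 9.92 ± 0.28, SE; adjusted p = 1.45e-16) and IL-4 raised it 3455-fold (11.75 ± 0.29; adjusted p = 1.89e-18). Because the untreated group held only 44 counts in all, counting error alone allows a ratio of 724 to 1338 for IL-33 and of 2576 to 4759 for IL-4 (95% intervals). Arg1 was 3.57-fold lower with IL-33 than with IL-4 (log2 difference -1.83 ± 0.16; adjusted p = 3.23e-09).

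Arg2 (ENSMUSG00000021125; chr12:79130777-79156301, plus strand), the mitochondrial arginase, followed IL-33 and not IL-4. Its wild-type libraries had 0.273, 0.285 and 0.476 CPM without cytokine, 3.09, 2.97 and 5.26 CPM with IL-33, and 0.284, 0.411 and 0.466 CPM with IL-4. All IL-33 libraries lay above the others, and the IL-4 libraries overlapped the untreated ones. Arg2 rose 10.8-fold with IL-33 (log2 change 3.43 ± 0.48; adjusted p = 5.39e-06). The IL-4 change was 0.18 ± 0.55 on the log2 scale (95% interval -0.96 to 1.33; adjusted p = 0.817), and IL-33 exceeded IL-4 9.52-fold (adjusted p = 6.22e-06). Exons of Arg2 overlap 401 bases of genes on the other strand, Vti1b among them, and the strand used for counting was not given in the sources used here, so reads of Arg2 and Vti1b cannot be told apart there. Vti1b itself was at 70.3 ± 4.89 CPM without cytokine and 83.9 ± 2.26 CPM with IL-33.

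Scaled by exon length, Arg2 and Arg1 were at like levels in untreated wild-type cells, 0.241 ± 0.0796 and 0.171 ± 0.0564 RPKM (CPM divided by the exon length in kilobases). Arg1 made up 41.7 ± 11.1% of the summed arginase level there, as against 98.5 ± 0.288% with IL-33 and 99.95 ± 0.0176% with IL-4. Even with both arginases up, the IL-33 level of Arg2, 2.64 ± 0.903 RPKM, was small beside 168 ± 27.1 RPKM for Arg1.

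Nos2 (ENSMUSG00000020826; chr11:78920787-78960254, plus strand), the inducible nitric oxide synthase, stayed at very low counts in every group. Wild-type libraries had 3, 0 and 5 counts without cytokine, 14, 29 and 46 with IL-33, and 4, 1 and 5 with IL-4. Thus the IL-33 libraries were above all the others, at no more than 1.29 CPM. The rise with IL-33 was called (log2 change 3.45 ± 0.85; adjusted p = 0.00302), and the counts, 89 against 8, give a ratio of 11.2 with a counting interval of 5.46 to 26.8. With IL-4 the log2 change was 0.29 ± 1.04 (adjusted p = 0.849). By length the IL-33 level of Nos2 was 0.180 ± 0.106 RPKM.

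Among the carriers, Slc7a2 (ENSMUSG00000031596; chr8:40862396-40922308, plus strand), the carrier known to be inducible in macrophages, moved most. It was at 2.43, 2.72 and 2.91 CPM without cytokine, 43.3, 35.3 and 51.5 CPM with IL-33, and 217, 282 and 225 CPM with IL-4. These sets were well apart. Slc7a2 rose 16.1-fold with IL-33 (log2 change 4.01 ± 0.17; adjusted p = 4.76e-14) and 89.6-fold with IL-4 (6.48 ± 0.17; adjusted p = 6.57e-18), and IL-33 was 5.57-fold below IL-4 (adjusted p = 7.03e-13).

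The widely expressed carrier Slc7a1 (ENSMUSG00000041313; chr5:148327410-148399904, minus strand) moved less. It was at 8.94, 9.47 and 9.19 CPM without cytokine, 13.2, 12.3 and 13.3 CPM with IL-33, and 24.3, 29.3 and 21.6 CPM with IL-4, again with no overlap. Slc7a1 rose 2.72-fold with IL-4 (log2 change 1.45 ± 0.17; adjusted p = 1.74e-07). Its rise with IL-33 was 1.40-fold (0.49 ± 0.17; adjusted p = 0.0272), a call that was lost with limma-voom (0.0519) and without any 1 of 5 wild-type libraries (untreated replicates 1, 2 and 3 and IL-33 replicates 1 and 3), where adjusted p reached 0.0806. Slc7a2 made up 26.9 ± 1.49% of the summed length-scaled level of both carriers in untreated cells, 80.7 ± 2.36% in IL-33 cells and 92.4 ± 0.549% in IL-4 cells.

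**Figure D2:**
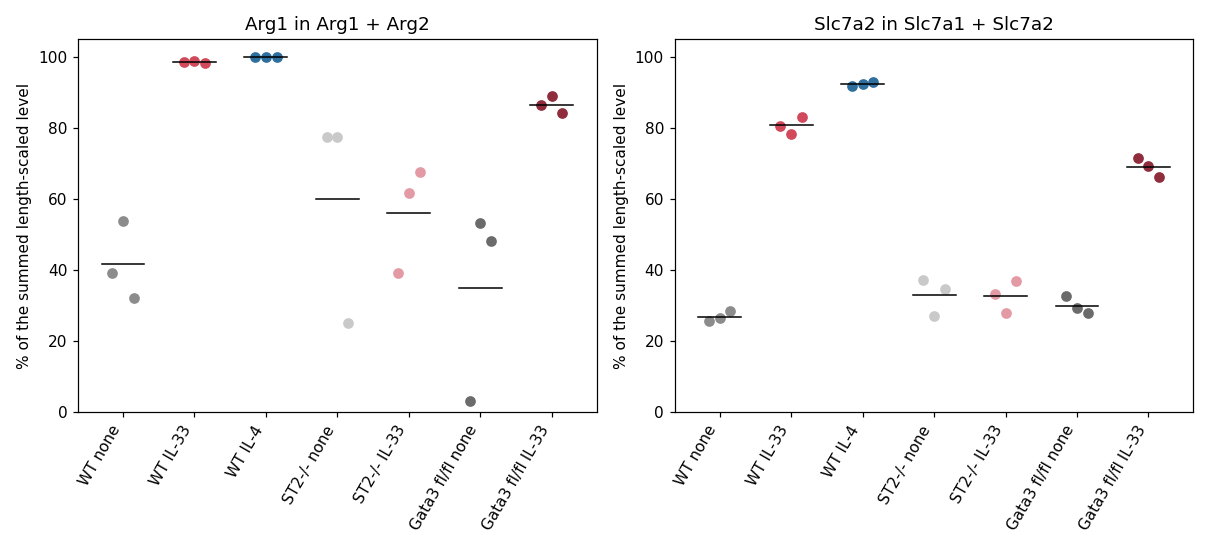
Share of Arg1 in the summed length-scaled level of Arg1 and Arg2 (left) and of Slc7a2 in that of Slc7a1 and Slc7a2 (right), in percent; points are libraries and bars group means. The mean Slc7a2 share in wild-type cells is 26.9% untreated and reaches 80.7% under IL-33 and 92.4% under IL-4, whereas the ST2-/- libraries lie between 27.0% and 37.2% in both conditions; the Arg1 share ranges from 3.26% to 77.5% over the untreated libraries, which hold 1 to 43 Arg1 counts.

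Ass1 and Asl work one after the other to rebuild arginine from citrulline, and they behaved differently. Ass1 (ENSMUSG00000076441; chr2:31470207-31520672, plus strand) was at 3.74, 3.11 and 2.96 CPM without cytokine, 24.5, 19.3 and 26.4 CPM with IL-33, and 12.8, 13.7 and 12.0 CPM with IL-4. Here the order was turned round, with IL-33 above IL-4 in every library. Ass1 rose 7.15-fold with IL-33 (log2 change 2.84 ± 0.21; adjusted p = 4.38e-10) and 3.93-fold with IL-4 (1.97 ± 0.21; adjusted p = 6.35e-08), and the IL-33 level was 1.82-fold above that with IL-4 (adjusted p = 6.67e-04). A processed pseudogene, Gm5424, matches Ass1 at 99.5% over 1240 bases, and reads of the pair may have been split between them. Gm5424 had 361, 1435 and 771 counts in the untreated, IL-33 and IL-4 groups against 375, 2650 and 1512 for Ass1. With the counts of both summed, a choice made after seeing the data, IL-33 changed the sum by 2.48 ± 0.18 and IL-4 by 1.58 ± 0.18 on the log2 scale, and IL-33 remained above IL-4 by 0.91 ± 0.16 (adjusted p = 7.99e-05).

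Asl (ENSMUSG00000025533; chr5:130011258-130029247, minus strand) was not called in any comparison. Its wild-type libraries had 63.6, 63.1 and 66.8 CPM without cytokine, 67.4, 59.4 and 59.8 CPM with IL-33, and 63.7, 68.0 and 69.6 CPM with IL-4, which overlapped. The log2 change was -0.05 ± 0.06 with IL-33 (95% interval -0.18 to 0.07; adjusted p = 0.546) and 0.06 ± 0.06 with IL-4 (-0.07 to 0.18; adjusted p = 0.453). In length-scaled terms Asl exceeded Ass1 in untreated cells, 13.3 ± 0.422 against 1.36 ± 0.173 RPKM. With IL-33 Ass1 came to 9.69 ± 1.51 RPKM and Asl to 12.9 ± 0.926 RPKM. The Ass1 values leave out reads assigned to Gm5424, so Ass1 and Asl cannot be ranked with IL-33.

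The polyamine enzymes changed by smaller amounts. Odc1 (ENSMUSG00000011179; chr12:17544794-17551505, plus strand), which makes putrescine, was at 25.4, 29.5 and 24.9 CPM without cytokine, 34.2, 33.5 and 31.0 CPM with IL-33, and 39.6, 38.8 and 39.1 CPM with IL-4. All 9 libraries kept this order by group. The rise was 1.24-fold with IL-33 (log2 change 0.31 ± 0.10; adjusted p = 0.0195) and 1.47-fold with IL-4 (0.56 ± 0.10; adjusted p = 6.18e-05). Without untreated replicate 1 or 3, or IL-33 replicate 1 or 2, the IL-33 call was lost, with adjusted p of up to 0.102. Odc1 has several near-identical copies elsewhere in the genome, to which some of its reads could have been assigned, and the copy with the most counts, AW146154, had 535 counts in the untreated and 448 in the IL-33 group beside 3061 and 3755 for Odc1.

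Srm (ENSMUSG00000006442; chr4:148591503-148594993, plus strand), the spermidine synthase, was at 12.1, 10.5 and 9.54 CPM without cytokine, 11.1, 9.19 and 9.54 CPM with IL-33, and 16.9, 19.6 and 17.7 CPM with IL-4. The IL-33 libraries overlapped the untreated ones, and the IL-4 libraries stood above both. Srm rose 1.69-fold with IL-4 (log2 change 0.76 ± 0.15; adjusted p = 2.43e-04). With IL-33 the log2 change was -0.11 ± 0.15 (95% interval -0.43 to 0.21; adjusted p = 0.640), and the difference between IL-33 and IL-4 was called (-0.86 ± 0.15; adjusted p = 7.45e-05).

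Sat1 (ENSMUSG00000025283; chrX:155213132-155216449, minus strand), the spermidine and spermine acetyltransferase, was the member that moved in opposite directions. It was at 394, 373 and 399 CPM without cytokine, 329.9, 305 and 272 CPM with IL-33, and 530.2, 466 and 595 CPM with IL-4, with no overlap. Sat1 fell by 0.36 ± 0.10 on the log2 scale with IL-33 (adjusted p = 0.00605) and rose by 0.45 ± 0.10 with IL-4 (adjusted p = 6.79e-04). IL-33 was 1.76-fold below IL-4 (adjusted p = 6.11e-07). Per length Sat1 was the highest of the 10 members in untreated wild-type cells, at 140.1 ± 4.91 RPKM.

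Between the cytokines, 3 members were higher with IL-33 than with IL-4, namely Arg2, Nos2 and Ass1, against 19.2% of all genes. The 6 members lower with IL-33 were Arg1, Slc7a1, Slc7a2, Odc1, Srm and Sat1, against 20.7% of all genes. For Odc1 the difference was small (log2 difference -0.25 ± 0.10; adjusted p = 0.0446), and it lost its call without any 1 of 6 libraries and with another scaling or a stricter filter.

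**Figure D3:**
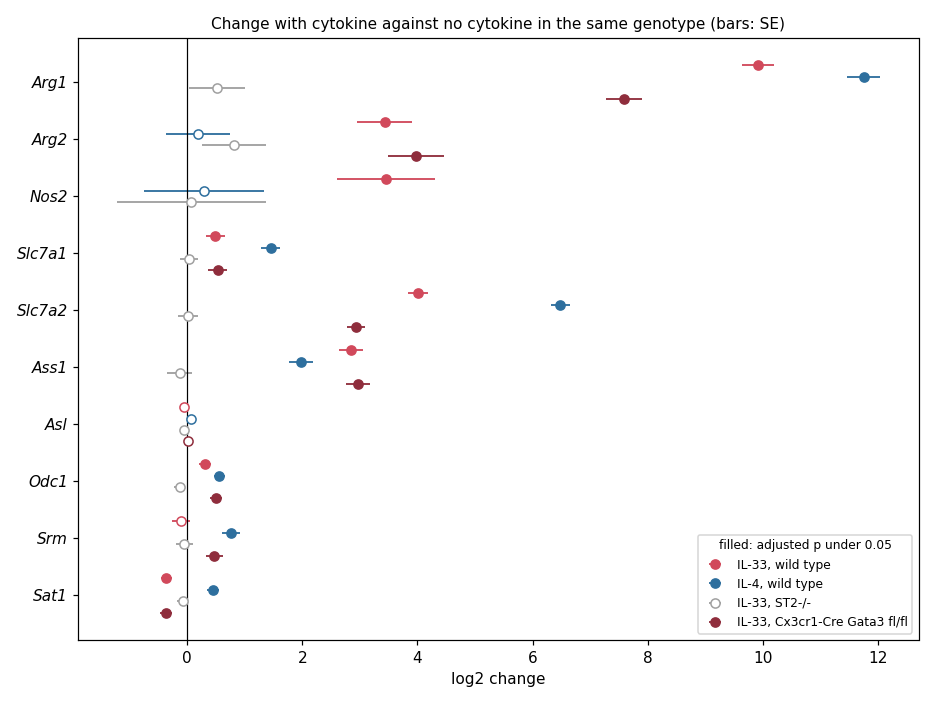
Log2 change of each member with cytokine against no cytokine in the same genotype, with SE bars; filled points have an adjusted p under 0.05, and Nos2 in Gata3-floxed cells is left out because its untreated libraries hold 0 counts. Arg1 lies at 9.92 with IL-33 and 11.75 with IL-4 in wild-type cells, the ST2-/- points lie from -0.13 to 0.81 with none filled, and Sat1 is at -0.36 with IL-33 and 0.45 with IL-4.

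Promoter windows (RefSeq, GRCm38.p6, 250 bases before to 50 after a gene start) were found for 4 of the 10 members. The 4 matched windows belong to members called with both cytokines: IL-4 raised all 4, and IL-33 raised Ass1, Slc7a1 and Odc1 and lowered Sat1. Capitals mark matches on either strand to GGGCGG (GC box, the site type of Sp1) and CACGTG (E-box, the site type of Myc with Max). No match to TTCNNNNGAA (a STAT6-type spacing) or TTGCNNAA (a C/EBP-type core) was found in these windows. The windows were chr2:31470020-31470319 (plus strand) for Ass1, chr5:148399855-148400154 (minus) for the upstream start of Slc7a1, chr12:17544623-17544922 (plus) for Odc1 and chrX:155216400-155216699 (minus) for Sat1, each printed 5′ to 3′ along the gene.
Ass1: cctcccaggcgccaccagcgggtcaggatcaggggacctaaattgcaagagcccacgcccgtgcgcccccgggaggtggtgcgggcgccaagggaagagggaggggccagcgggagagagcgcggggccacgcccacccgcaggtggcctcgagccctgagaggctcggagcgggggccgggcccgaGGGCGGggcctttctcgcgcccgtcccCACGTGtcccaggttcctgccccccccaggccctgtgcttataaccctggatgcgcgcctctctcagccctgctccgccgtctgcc
Slc7a1: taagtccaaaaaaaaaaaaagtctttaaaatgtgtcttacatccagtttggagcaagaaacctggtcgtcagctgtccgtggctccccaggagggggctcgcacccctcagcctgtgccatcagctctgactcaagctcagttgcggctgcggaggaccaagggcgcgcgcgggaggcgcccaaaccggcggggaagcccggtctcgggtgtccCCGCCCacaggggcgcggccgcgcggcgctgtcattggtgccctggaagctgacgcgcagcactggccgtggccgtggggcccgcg
Odc1: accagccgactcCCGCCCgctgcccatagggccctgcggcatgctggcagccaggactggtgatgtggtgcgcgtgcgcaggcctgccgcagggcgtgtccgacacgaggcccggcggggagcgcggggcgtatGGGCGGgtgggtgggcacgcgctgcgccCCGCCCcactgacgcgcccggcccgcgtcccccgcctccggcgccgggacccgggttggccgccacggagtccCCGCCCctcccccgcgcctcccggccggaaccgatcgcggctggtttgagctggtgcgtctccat
Sat1: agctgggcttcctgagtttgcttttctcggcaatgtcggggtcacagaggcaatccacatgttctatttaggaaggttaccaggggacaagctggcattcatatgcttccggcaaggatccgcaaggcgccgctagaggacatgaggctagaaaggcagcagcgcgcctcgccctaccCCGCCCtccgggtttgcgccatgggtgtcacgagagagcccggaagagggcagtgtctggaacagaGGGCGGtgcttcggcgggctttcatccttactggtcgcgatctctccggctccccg

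Among these windows the E-box was found in Ass1, where it begins 36 bases before the RefSeq start that the window is built on, which is not the gene start given above, and GC boxes were found in all 4, with 4 in Odc1, 2 in Sat1 and 1 each in Ass1 and Slc7a1. Of all 32851 promoter windows in the table, 7.15% hold CACGTG, 35.7% hold GGGCGG, 6.95% hold TTCNNNNGAA and 10.8% hold TTGCNNAA. A second Slc7a1 window, at chr5:148392766-148393065, holds no match to any of these letters.

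In ST2-/- cells, none of the members was called with IL-33. Arg1 was at 0.370, 0.887 and 0.274 CPM without cytokine and 0.713, 1.16 and 0.352 CPM with IL-33, which overlapped. Slc7a2 was at 5.12, 4.62 and 5.30 CPM without and 4.85, 5.18 and 5.12 CPM with IL-33. Ass1 was at 3.13, 4.31 and 3.58 CPM without and 3.59, 3.95 and 2.47 CPM with IL-33. By edgeR 0 of 10 members were called, as by DESeq2 and limma-voom, and 0 reached an unadjusted p under 0.05. Of all 14473 genes 0% were called higher and 0% lower, with 507 genes at an unadjusted p under 0.05 and 0 calls by DESeq2 and by limma-voom. Some intervals were wide: that of Arg1 ran from -0.49 to 1.52 and that of Arg2 from -0.35 to 1.97 on the log2 scale.

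The difference between the IL-33 responses of ST2-/- and wild-type cells was itself tested. It was called for 5 members, all lower in ST2-/- cells, against 12.1% of all genes called lower and 10.6% higher, a balance that turned from 1539 higher and 1745 lower to 1841 and 1500 with upper-quartile scaling. The log2 differences were -9.40 ± 0.76 for Arg1 (adjusted p = 5.80e-09), -3.99 ± 0.25 for Slc7a2 (8.29e-11) and -2.97 ± 0.31 for Ass1 (2.08e-07). Arg2 was at -2.62 ± 0.75 (adjusted p = 0.0139), a call lost with limma-voom (0.0540) and without untreated ST2-/- replicate 3 (-1.58; 0.186). Odc1 was at -0.44 ± 0.14 (adjusted p = 0.0270), and it was lost when only the compared groups were fitted (0.0520) and without any 1 of 7 libraries, with adjusted p of up to 0.0980. Sat1, which fell in wild-type cells, had a difference of 0.28 ± 0.14 that was not called (adjusted p = 0.164).

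With IL-33 present in both, ST2-/- cells were below wild-type cells in 5 members, Arg1, Arg2, Nos2, Slc7a2 and Ass1, against 19.1% of all genes lower and 17.9% higher (2759 and 2593, or 2336 and 3098 with upper-quartile scaling). Arg1 was 490.2-fold lower (adjusted p = 1.99e-16). Without cytokine, 1 member differed between these genotypes, against 0.871% of all genes higher and 0.484% lower in ST2-/- cells. That member was Slc7a2, at 5.12, 4.62 and 5.30 CPM against 2.43, 2.72 and 2.91 CPM in wild-type cells, a 1.86-fold higher level with no overlap (log2 difference 0.89 ± 0.19; adjusted p = 0.0230). Limma-voom did not call it (adjusted p = 0.230), nor did fits without untreated wild-type replicate 1 (0.130) or 3 (0.0693) or ST2-/- replicate 2 (0.0528) or 3 (0.0721).

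Gata3-floxed cells responded to IL-33 in 9 of 10 members, with 8 higher and 1 lower, against 17.1% and 16.3% of all genes. With upper-quartile scaling the split of all genes moved from 2471 higher and 2364 lower to 2001 and 2985, while the members' calls stayed 8 and 1. Arg1 went from 0.0203, 0.382 and 0.320 CPM to 47.2, 45.6 and 40.2 CPM, a 192-fold rise (log2 change 7.58 ± 0.31; adjusted p = 4.59e-14). Its untreated libraries held 1, 16 and 13 counts, and counting error alone allows a ratio of 136 to 289. Slc7a2 went from 3.50, 4.58 and 3.18 CPM to 35.0, 24.3 and 26.3 CPM, 7.62-fold (adjusted p = 3.11e-12). For both genes every IL-33 library lay above every untreated one.

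Arg2, Ass1 and Nos2 rose in Gata3-floxed cells as well. Arg2 went from 0.385, 0.215 and 0.222 CPM to 4.77, 3.66 and 4.81 CPM, 15.7-fold (adjusted p = 9.96e-07). Ass1 went from 4.86, 3.55 and 4.14 CPM to 41.4, 21.3 and 35.6 CPM, 7.81-fold (adjusted p = 1.55e-10). Nos2 had 0 counts in the untreated libraries and 19, 21 and 12 with IL-33, at least 7.25-fold higher when each untreated library is set to a floor of 3 counts (adjusted p = 3.91e-04 in edgeR's fit).

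Slc7a1 rose 1.44-fold (adjusted p = 0.0152) and Srm 1.39-fold (adjusted p = 0.0212), although their libraries overlapped, Srm for instance with 10.4, 8.92 and 7.69 CPM without and 13.8, 10.1 and 13.6 CPM with IL-33. Each of these calls was lost without single libraries: for Slc7a1 without untreated replicate 1 or 3 or IL-33 replicate 1 or 3, and for Srm without untreated replicate 2 or 3 or IL-33 replicate 1 or 3. Odc1 rose 1.41-fold (adjusted p = 4.23e-04), and Sat1 fell by 0.37 ± 0.10 on the log2 scale (adjusted p = 0.00567). Asl was at 0.01 ± 0.06 (adjusted p = 0.953).

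When wild-type and Gata3-floxed cells were compared with IL-33 in both, 2 members were lower and 0 higher in Gata3-floxed cells, against 5.85% and 5.5% of all genes. They were Arg1 and Slc7a2. Arg1 was at 47.2, 45.6 and 40.2 CPM against 319.9, 362 and 439 CPM, 8.43-fold lower with no overlap (log2 difference -3.07 ± 0.17; adjusted p = 3.80e-11). Slc7a2 was at 35.0, 24.3 and 26.3 CPM against 43.3, 35.3 and 51.5 CPM, 1.51-fold lower (-0.60 ± 0.13; adjusted p = 0.00406), and its libraries came close to each other without overlapping. For both genes the call held in all 14 alternatives run.

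The remaining members were not called in that comparison. Arg2 had a log2 difference of 0.23 ± 0.39 (95% interval -0.58 to 1.04; adjusted p = 0.774), so the other arginase was not shown to be lower. Ass1 was at 0.49 ± 0.18 (0.11 to 0.87; adjusted p = 0.0876), Srm at 0.33 ± 0.15 (0.01 to 0.65; adjusted p = 0.183) and Sat1, which is X-linked, at -0.08 ± 0.10 (-0.29 to 0.13; adjusted p = 0.685). Of the summed arginase level, Arg1 made up 86.5 ± 2.30% in Gata3-floxed cells with IL-33, and Slc7a2 made up 69.0 ± 2.63% of the carriers. Among the values that moved with this comparison was Il1rl1, the IL-33 receptor gene, at 6.44 ± 1.12 CPM in Gata3-floxed and 15.7 ± 1.14 CPM in wild-type cells with IL-33 (log2 difference -1.29 ± 0.15; adjusted p = 4.53e-06), besides sex, as given above. Summed neutrophil markers were at 294 to 344 CPM in Gata3-floxed and 196 to 278 CPM in wild-type cells with IL-33, monocyte markers at 658 to 726 and 697 to 1041 CPM, and the 7 mast cell and basophil markers at 5.75 to 6.97 and 2.11 to 3.52 CPM. Eosinophil markers summed to 23.7 to 25.4 and 24.6 to 27.8 CPM, with Ccr3 at 5.64 and 16.3 CPM. Siglecf, Prg2 and Epx went the other way, at 16.5 and 8.10, 2.37 and 1.30, and 0.21 and 0.11 CPM. Il5ra had 0 counts in both groups. The part of Il1rl1 and of these markers in the lower Arg1 was not tested.

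**Figure D4:**
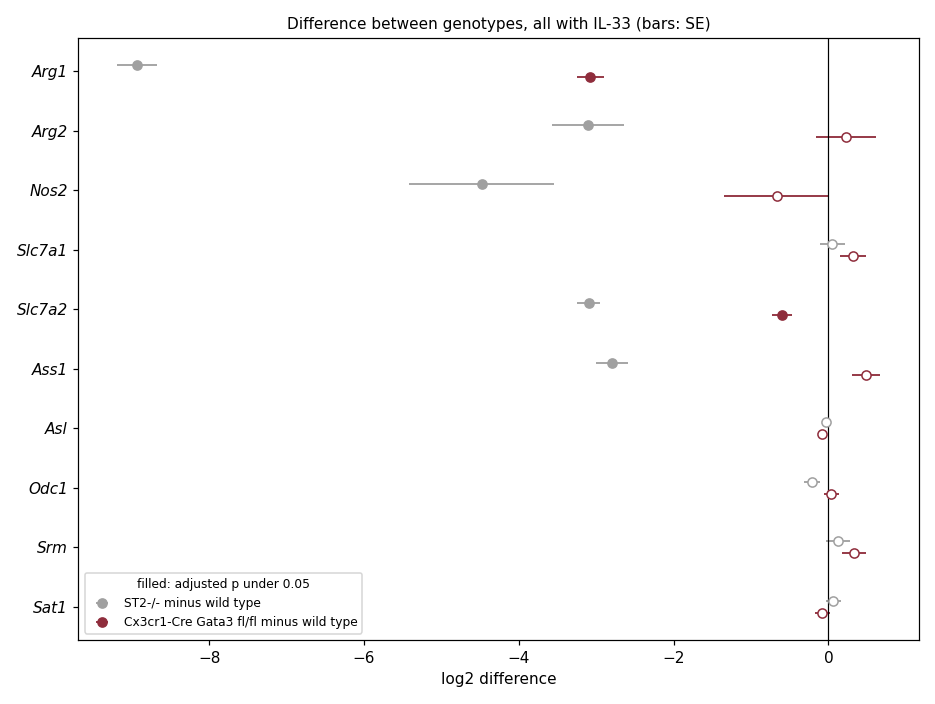
Log2 difference of ST2-/- (grey) and Gata3-floxed (dark red) cells from wild-type cells for each member, all with IL-33, with SE bars; filled points have an adjusted p under 0.05. Arg1 is at -8.94 in ST2-/- and -3.07 in Gata3-floxed cells and Slc7a2 at -3.10 and -0.60, while the Gata3-floxed values of Arg2, Ass1 and Srm lie above 0 and are not filled.

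Without cytokine, 0 of 10 members were called between Gata3-floxed and wild-type cells by edgeR, against 5.6% of all genes higher and 4.25% lower. Of the 10 members, 3 had an unadjusted p under 0.05, a share near the 24.1% of all genes that did. Limma-voom called 0 members, with 1519 of all 14473 genes called. DESeq2 called 1, with 1799 of 13911 genes called. This was Nos2, whose untreated libraries held 0 counts in Gata3-floxed and 8 in wild-type cells. The test of the difference between the 2 genotypes' IL-33 responses called 1 member, against 0.677% of all genes lower and 0.539% higher. This was Slc7a2, whose response was smaller in Gata3-floxed cells by 1.08 ± 0.24 on the log2 scale (log2 difference -1.08; adjusted p = 0.0315). It was not called by limma-voom (0.239) or without any 1 of 6 libraries (untreated wild-type replicates 1 and 3, wild-type IL-33 replicate 3, untreated Gata3-floxed replicates 1 and 2, Gata3-floxed IL-33 replicate 3), where adjusted p reached 0.110. For Arg1 the difference of responses was -2.34 ± 0.79 (95% interval -3.97 to -0.70) and did not pass (adjusted p = 0.171). Over its 20 alternatives the adjusted p ran from 1.39e-07, with no filter on low counts, to 0.692, and the call was made with no filter only.

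Beyond the members, lists of neighbouring genes of the pathway were counted in the wild-type comparisons; they too were chosen with results of these data known. The ornithine and proline list held 9 tested genes of ornithine and proline metabolism and of the hydroxylation of collagen. Of these, 4 rose with IL-33 and 0 fell, against 18.5% and 16.9% of all genes, with a list median of 0.15. P4ha2 and P4ha1, which hydroxylate proline in collagen, rose 3.69-fold (log2 change 1.88 ± 0.14; adjusted p = 3.14e-10) and 1.83-fold (adjusted p = 3.07e-07). Aldh18a1, which makes the proline precursor from glutamate, rose 1.43-fold (adjusted p = 0.00113), and Oat, the ornithine aminotransferase, 1.11-fold (adjusted p = 0.00602). With IL-4 P4ha1, P4ha2, Aldh18a1 and Oat rose too, 1.70-fold, 1.49-fold, 1.34-fold and 1.25-fold (adjusted p = 9.95e-07, 0.00158, 0.00442 and 6.70e-07), and 0 fell, against 25.1% and 22.5% of all genes, with a list median of 0.31. P4ha2 was 2.47-fold higher with IL-33 than with IL-4 (adjusted p = 3.38e-08).

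In the list of creatine, agmatine and arginine methylation genes, 2 of 9 tested genes rose with IL-33, a share near the 18.5% of all genes. With IL-4 5 of 9 rose, against 25.1%, and 0 fell with either cytokine. Gatm, which takes arginine into creatine synthesis, rose 2.01-fold with IL-33 (log2 change 1.01 ± 0.07; adjusted p = 7.01e-11) and 3.12-fold with IL-4 (1.64 ± 0.07; adjusted p = 8.91e-15). Azin2, an antizyme inhibitor related in sequence to Odc1, rose 3.13-fold with IL-33 (adjusted p = 6.61e-08) and 9.43-fold with IL-4 (adjusted p = 4.94e-13). Prmt7 and Prmt3, which methylate arginine in proteins, rose 1.48-fold and 1.37-fold with IL-4 (adjusted p = 2.50e-04 and 4.29e-04). The responses of Gatm and Azin2 to IL-33 were smaller in Gata3-floxed cells, by log2 differences of -0.93 ± 0.09 (adjusted p = 3.01e-05) and -1.04 ± 0.24 (adjusted p = 0.0370). In that test 0.677% of all genes were called lower and 0.539% higher. Both genes were picked from the lists for this comparison, and their calls were not checked in the alternatives.

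Of 7 other tested genes of polyamine synthesis and antizymes, 1 rose and 1 fell with IL-33, shares near the 18.5% and 16.9% of all genes, and 3 rose and 1 fell with IL-4, against 25.1% and 22.5%. Amd1, which supplies the aminopropyl donor, rose 1.34-fold with IL-33 (adjusted p = 1.13e-04) and 1.60-fold with IL-4 (adjusted p = 9.50e-08). Sms, the spermine synthase, fell by 0.40 ± 0.07 on the log2 scale with IL-33 (adjusted p = 1.27e-04) and rose by 0.68 ± 0.07 with IL-4 (adjusted p = 3.54e-08), the same pair of directions as Sat1. Azin1, which spares Odc1 from antizyme, rose 1.46-fold with IL-4 (adjusted p = 1.40e-08), and the antizyme Oaz2 fell by 0.36 ± 0.07 (adjusted p = 1.31e-04).

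For breakdown and transport of polyamines, 2 of 7 tested genes rose and 1 fell with IL-33, against 18.5% and 16.9% of all genes, and 1 rose and 4 fell with IL-4, against 25.1% and 22.5%. Cav1, a caveolar protein tied to polyamine uptake, rose 4.20-fold with IL-33 (adjusted p = 7.21e-06) and 14.3-fold with IL-4 (adjusted p = 2.34e-10). Slc18b1, a vesicular polyamine carrier, fell by 0.72 ± 0.20 with IL-33 (adjusted p = 0.00729) and by 1.00 ± 0.20 with IL-4 (adjusted p = 2.99e-04), on the log2 scale. Smox, the spermine oxidase, rose by 0.16 ± 0.05 with IL-33 (adjusted p = 0.0149) and fell by 0.85 ± 0.05 with IL-4 (adjusted p = 7.20e-12). The lysosomal polyamine exporter Atp13a2 fell by 0.79 ± 0.04 with IL-4 (adjusted p = 1.72e-12).

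Spermidine is the source of hypusine, the modified residue of the translation factor eIF5A. Of the 4 genes of that route 1 rose and 1 fell with IL-33, and 2 rose and 1 fell with IL-4, against the same shares of all genes. Eif5a rose 1.53-fold with IL-33 (adjusted p = 8.45e-07) and 2.40-fold with IL-4 (adjusted p = 4.05e-12), while its paralog Eif5a2 fell by 0.33 ± 0.10 (adjusted p = 0.00926) and 0.87 ± 0.10 (adjusted p = 1.20e-07). The hypusine enzyme Dhps rose 1.21-fold with IL-4 (adjusted p = 0.00956), and Dohh was called with neither cytokine.

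**Figure D5:**
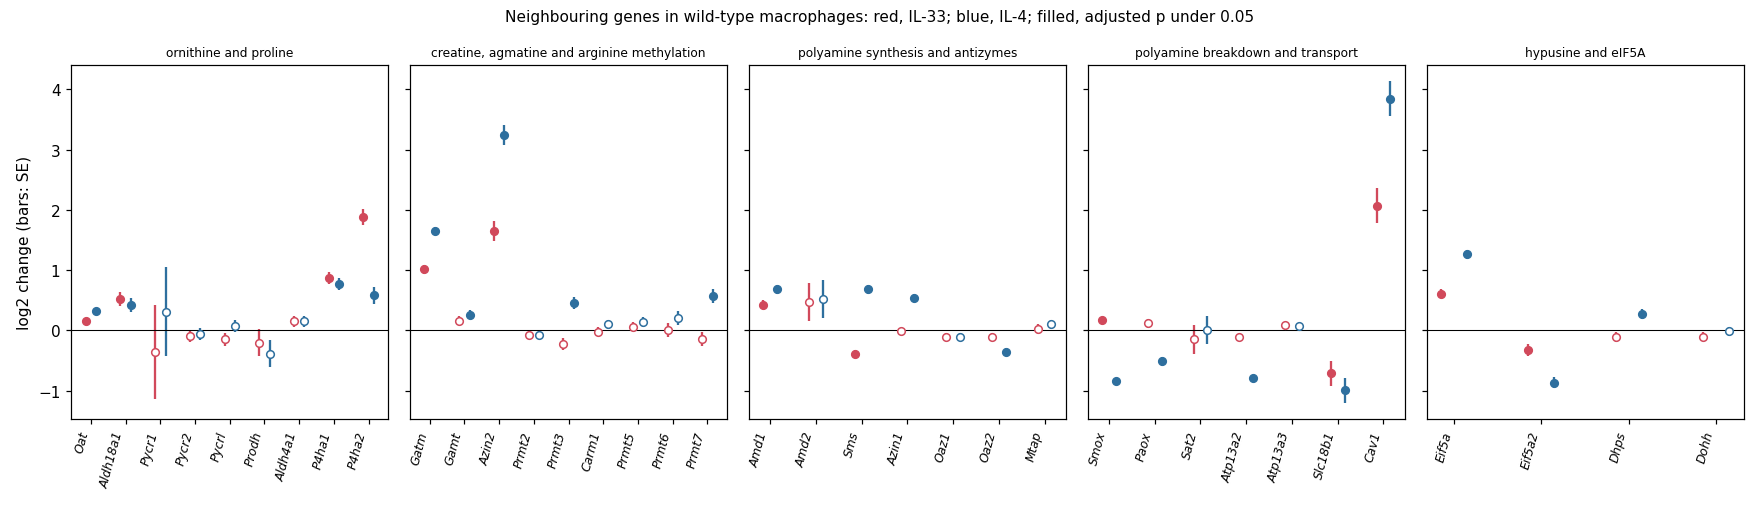
Log2 change with IL-33 (red) and IL-4 (blue) in wild-type macrophages of the tested genes in 5 pathway lists, with SE bars; filled points have an adjusted p under 0.05. P4ha2 is higher with IL-33 (1.88) than with IL-4 (0.58), Azin2 and Cav1 are higher with IL-4 (3.24 and 3.84), and Sms has opposite signs (-0.40 and 0.68).

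The list of nitric oxide synthesis and its tetrahydrobiopterin cofactor gave 4 of 11 tested genes higher and 2 lower with IL-33, against 18.5% and 16.9% of all genes, and 3 higher and 4 lower with IL-4, against 25.1% and 22.5%. Gch1, the first enzyme of the cofactor, rose 1.26-fold with IL-33 (adjusted p = 0.0115), as did Cyb5r3 (1.27-fold, adjusted p = 2.58e-05), and Nostrin, which interacts with the endothelial synthase, fell by 0.45 ± 0.07 on the log2 scale (adjusted p = 1.26e-05). With IL-4, Cyb5r3 and the cofactor-recycling enzyme Qdpr rose 1.86-fold and 1.82-fold, and Ddah2, which breaks down methylated arginine, fell by 0.76 ± 0.14 (adjusted p = 6.88e-05) and Nostrin by 0.61 ± 0.07 (adjusted p = 1.18e-07). In the 6 tested genes of other arginine carriers, 1 rose and 0 fell with IL-33, and 2 rose and 2 fell with IL-4, against the same shares. Slc7a7 rose 1.38-fold with IL-33 (adjusted p = 0.00734) and fell by 1.30 ± 0.14 with IL-4 (adjusted p = 6.16e-08). Slc25a29, a mitochondrial basic amino acid carrier, fell by 2.48 ± 0.76 with IL-4 from 0.294 ± 0.0713 CPM (adjusted p = 0.00978), and Slc38a9 and Slc3a2 rose 1.36-fold and 1.08-fold (adjusted p = 2.58e-04 and 0.0309). In the urea cycle list 3 of 7 genes were tested. Of these 1 rose and 1 fell with IL-33, and 2 rose and 1 fell with IL-4, against the same shares. Slc25a13, the mitochondrial aspartate carrier, fell by 0.36 ± 0.06 with IL-33 (adjusted p = 1.10e-04) and rose 2.10-fold with IL-4 (adjusted p = 2.93e-12). Slc25a15, the mitochondrial ornithine carrier, rose by 0.34 ± 0.09 on the log2 scale with IL-33 (adjusted p = 0.00705) and by 0.28 ± 0.09 with IL-4 (adjusted p = 0.0166), and the urea transporter Slc14a1 fell by 1.07 ± 0.37 with IL-4 (adjusted p = 0.0210). The methionine list, which feeds Amd1, gave 1 of 10 tested genes higher and 2 lower with IL-33, and 4 higher and 2 lower with IL-4, against the same shares. With IL-33, Ahcy rose 1.28-fold (adjusted p = 0.0199), and Adi1 and Mri1 fell by 0.44 ± 0.09 and 0.27 ± 0.09 (adjusted p = 4.81e-04 and 0.0272). With IL-4, the methionine salvage enzyme Enoph1 rose 1.66-fold (adjusted p = 3.10e-08), Ahcy 1.37-fold (adjusted p = 0.00202) and Mat2a 1.24-fold (adjusted p = 4.41e-04), and the methionine synthase Mtr fell by 0.72 ± 0.09 (adjusted p = 1.14e-06).

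Transcription factors tied to these genes in earlier work were also read. Of 12 tested, 7 rose and 3 fell with IL-33, against 18.5% and 16.9% of all genes, and 7 rose and 5 fell with IL-4, against 25.1% and 22.5%. Pparg, a lipid-sensing receptor, fell by 1.14 ± 0.09 with IL-33 (adjusted p = 1.95e-09) and rose by 1.19 ± 0.09 with IL-4 (adjusted p = 2.14e-10), on the log2 scale. Klf4 rose 2.46-fold (adjusted p = 5.62e-11) and 4.27-fold (adjusted p = 9.10e-15), and Myc 1.84-fold (adjusted p = 0.00172) and 4.29-fold (adjusted p = 1.30e-08). Cebpb rose 1.90-fold with IL-33 (adjusted p = 1.20e-04) and 1.55-fold with IL-4 (adjusted p = 0.00337). Its difference between IL-33 and IL-4 was not called (adjusted p = 0.158). Cebpd, another C/EBP factor, rose 1.23-fold with IL-33 (adjusted p = 0.0228) and fell by 1.02 ± 0.11 with IL-4 (adjusted p = 3.82e-08).

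The genes whose levels ran most like each member over the 21 libraries were listed among 9609 protein-coding genes by Pearson's r of log2 CPM, as a description: the libraries share groups, which any responding gene follows. For Arg1 these were Mgl2, a lectin (r = 0.988), Pdia4 (0.987) and Igf1 (0.985). Mgl2 went from 9.34 CPM in untreated wild-type cells to 279 CPM with IL-33, 1053 CPM with IL-4 and 139 CPM in Gata3-floxed cells with IL-33. Flrt2 (0.990) led for Slc7a2, Taldo1 (0.981) for Ass1, C1ra (0.956) for Arg2 and H2-T23 (0.956) for Sat1. The likeness for Asl was the lowest, with Tecr at 0.822.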

How the data were processed

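The deposited table held read counts per gene, made by the authors, for 21 libraries and 47069 genes. Per the submitters' processing notes, the tools were HTSeq 0.6.1, HISAT2 2.0.5 and DESeq2 1.22.2, on the build GRCm38 (mm10); the annotation and strandedness are not given in the sources used here. Per the labels' protocols, 1 ug of RNA was made into libraries and read as pairs of 150 bases. The counts were tested with edgeR 4.0.16 (R 4.3.3): genes kept by filterByExpr (14473, at least 99.97% of each library's counts), TMM scaling, a quasi-likelihood fit of all 7 groups together, and Benjamini-Hochberg adjustment over all tested genes. Standard errors were derived from the F statistic of each test. Levels are CPM, mean ± SD over 3 libraries, and RPKM divides them by the exon length in GENCODE M21, where 46488 of 47069 IDs were found. Since the labels name no separate animals, the p-values reflect differences among libraries that could be technical only. Intervals of 95% on count ratios and the floor of 3 counts cover counting error only. The members and all gene lists were chosen with earlier results of these data known. The 10 members were always described; of each list, up to 4 called genes with the largest change and any past 4-fold were to be named, apart from 1 gene that is not reported here. DESeq2 1.42.0, limma-voom (limma 3.58.1), other scalings, other filters, the compared groups alone, a replicate block and fits without each library were the alternatives. The fits were tested on simulated counts. Near-identical copies were sought with BLAST+ 2.17.0.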

Additional observations from a re-analysis of the deposited data

Results flagged for a closer look

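The response to IL-33 differed between genotypes, by the test of the difference itself in edgeR, for 6 pairs of a member and a genotype. Against wild-type cells, the ST2-/- response was smaller for Arg1 (log2 difference -9.40, adjusted p = 5.80e-09), Arg2 (-2.62, adjusted p = 0.0139), Slc7a2 (-3.99, adjusted p = 8.29e-11), Ass1 (-2.97, adjusted p = 2.08e-07) and Odc1 (-0.44, adjusted p = 0.0270). In Gata3-floxed cells it was smaller for Slc7a2 (-1.08, adjusted p = 0.0315). The call of Slc7a2 in Gata3-floxed cells held in 13 of 20 alternatives. Of the ST2-/- calls, that of Odc1 held in 12 of 20 and that of Arg2 in 18 of 20. Those of Arg1, Slc7a2 and Ass1 held in all 20.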

How the results depend on the processing

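Of 110 log2 values (10 members in 11 comparisons), 47 were called, 38 of them under every alternative run, and all 47 kept their sign; of 63 not called, 52 were called under none. The number of members called stayed within 1.5 times the main count except in 3 comparisons. For the Gata3-floxed difference of responses, limma-voom called 0 and no filter 3, and leaving out 1 library gave 0 to 1. For ST2-/- against wild type without cytokine, limma-voom called 0 and no filter 3, and leaving out 1 library gave 0 to 1. For Gata3-floxed against wild type without cytokine, DESeq2 called 1 and no filter 2, beside 1799 of 13911 and 1793 of 24667 genes. With no filter 24667 genes were tested, and the IL-33 response of ST2-/- cells had 70 calls among them and 0 among the members. Replicate numbers are shared by the groups. Same-numbered libraries of different groups deviated together only weakly (r from -0.04 to 0.11, median 0.026, 2 of 63 pairs over 0.1). Different-numbered libraries had slightly lower values (r from -0.12 to 0.054, median -0.013, 0 of 126 pairs over 0.1). The numbers were not taken as pairs in the main fit. With the replicate block, the members called stayed 8, 7, 9, 0, 9, 5, 1, 1, 0, 5 and 2 in the 11 comparisons, while calls over all genes moved from 176 to 355 for the Gata3-floxed difference of responses and from 196 to 590 for ST2-/- against wild type without cytokine. DESeq2 gave 384 and 438 there, and no filter 555 and 875. Signs turned only for values that were not called, and the cause was not tested. In ST2-/- cells with IL-33, Nos2 was at -0.21 with limma-voom. Asl with IL-33 in Gata3-floxed cells was at -0.0023 with no filter and -0.042 with upper-quartile scaling, which put Asl at 0.027 for the ST2-/- difference of responses and 0.015 for ST2-/- against wild type with IL-33. For the Gata3-floxed difference of responses, Sat1 was at 0.0012 with a minimum of 1 CPM, 0.0015 with DESeq2, 0.0018 with limma-voom and 0.0014 with RLE scaling. Leaving out 1 library gave, for the IL-33 response of ST2-/- cells, ranges of -0.28 to 0.035 for Ass1, -3.43 to 1.33 for Nos2, -0.16 to 0.0084 for Sat1, -0.17 to 0.19 for Slc7a1, -0.047 to 0.054 for Slc7a2 and -0.20 to 0.090 for Srm. It gave -0.29 to 1.02 for Nos2 with IL-4 and -0.046 to 0.053 for Asl with IL-33 in Gata3-floxed cells. For the ST2-/- difference of responses it gave -0.037 to 0.056 for Asl and -0.090 to 0.21 for Srm, and for the Gata3-floxed one -0.081 to 0.37 for Ass1, -0.11 to 0.076 for Sat1 and -0.066 to 0.23 for Slc7a1. Against wild type without cytokine it gave -0.24 to 0.75 for Arg1, -0.058 to 0.016 for Asl and -0.052 to 0.17 for Srm in ST2-/- cells, and -0.14 to 0.032 for Sat1 in Gata3-floxed cells. Against wild type with IL-33 it gave -0.052 to 0.038 for Asl, -0.013 to 0.15 for Sat1, -0.15 to 0.18 for Slc7a1 and -0.025 to 0.27 for Srm in ST2-/- cells, and -0.039 to 0.12 for Odc1 in Gata3-floxed cells. Depth limits Nos2 and untreated Arg1 and Arg2, whose untreated groups hold few counts, and a minimum of 1 CPM in 3 libraries removes Nos2.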
